A study of Mus musculus with 12 samples.

Results

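The genes of the voltage-gated sodium and calcium channels were followed in whole mouse hearts carrying altered Lemd2, a gene for a protein of the inner nuclear membrane. Members were taken by symbol, as rows that match Scn followed by a digit or that begin with Cacn, which gave 40 of the 24062 genes in the count table, 14 for sodium channels and 26 for calcium channels. Of these, 38 are described, 12 and 26, and every count of members below is over them. The study asked how the loss of Lemd2 function alters the heart, and heart RNA from 12 mice was sequenced, 3 in each of 4 groups. Adult hearts came from 2-month-old mice, either WT or homozygous for the Lemd2 c.T38>G point mutation (KI/KI), which every cell of the animal carries. Hearts at postnatal day 1 (P1) came from Lemd2-floxed pups without Cre and from cKO pups, in which Cre under the Myh6 promoter removes the floxed exon in cardiomyocytes. Other cells of the cKO heart keep an intact Lemd2.

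A sodium channel consists of a large α subunit, which forms the pore, and of β subunits, which adjust its gating and its placement in the membrane. Sodium current gives the upstroke of the action potential in working heart muscle. In calcium channels an α1 subunit forms the pore, an intracellular β subunit and an α2δ subunit bring it to the surface, and γ subunits accompany some of them. L-type channels admit the calcium that triggers contraction, and T-type channels open at lower voltages and serve pacemaker cells and the fetal heart.

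Total counts per library ranged from 37063669 to 44789753. Levels are given as CPM, each gene's count relative to the TMM-scaled total of its library over all 12 libraries, a scale on which 3 counts, the floor used here, equal 0.0599 to 0.0965 CPM. Lemd2 itself was at 32.0, 34.8 and 32.9 CPM in WT and at 25.6, 25.2 and 24.8 CPM in KI/KI hearts, and at 24.3, 25.0 and 25.4 CPM in floxed and at 6.59, 13.1 and 11.3 CPM in cKO hearts. Its log2 fold change was -0.40 in KI/KI (adjusted p = 0.186) and -1.27 in cKO (adjusted p = 0.016). The 8 cardiomyocyte markers summed to 41700 to 104000 CPM in every library, so the tissue carried the defining markers of heart muscle. Since whole hearts were used, fewer cells of a type and less RNA per cell cannot be told apart in any value below.

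The 250 bases before the start site that RefSeq gives in build GRCm38.p6 are shown for 3 members on which the comparisons turn, namely Scn4a, whose groups were separated in every comparison, Cacna1d, the member whose change differed between the models, and Cacnb3, which was higher in cKO. Capitals mark TATAAA or TNAAGTG, a site bound by Nkx factors, on either strand.
Scn4a, chr11:106349391-106349640, minus strand: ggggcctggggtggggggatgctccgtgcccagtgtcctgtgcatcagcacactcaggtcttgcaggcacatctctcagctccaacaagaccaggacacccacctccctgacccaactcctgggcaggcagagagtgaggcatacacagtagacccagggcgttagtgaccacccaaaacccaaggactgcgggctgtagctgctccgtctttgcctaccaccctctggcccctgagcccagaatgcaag
Cacna1d, chr14:30491157-30491406, minus strand: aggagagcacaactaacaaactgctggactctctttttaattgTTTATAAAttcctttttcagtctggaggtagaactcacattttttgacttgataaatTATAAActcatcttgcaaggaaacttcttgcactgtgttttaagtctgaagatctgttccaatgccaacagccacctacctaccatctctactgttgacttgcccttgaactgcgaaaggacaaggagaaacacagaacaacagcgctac
Cacnb3, chr15:98632078-98632327, plus strand: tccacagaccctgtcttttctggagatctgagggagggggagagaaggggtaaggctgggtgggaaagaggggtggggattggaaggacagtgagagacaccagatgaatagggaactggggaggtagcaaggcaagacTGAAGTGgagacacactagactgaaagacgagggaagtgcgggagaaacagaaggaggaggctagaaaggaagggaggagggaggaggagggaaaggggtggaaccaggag
Part of the Scn4a window (186 bases) and all 250 bases of the Cacna1d window are also exon of a noncoding transcript in GENCODE, and RefSeq lists 2 starts each for Cacna1d and Cacnb3, of which the first is shown. All 3 windows lie within the span that GENCODE gives their gene. That span begins upstream of the window, at base 106353288 for Scn4a, 30491455 for Cacna1d and 98630840 for Cacnb3. Of the 38 members described, 30 had an entry, and the first entry of each was searched on both strands for 6 motifs. TATAAA was found in 1 of them, Cacna1d, at 3 places of which 2 overlap on opposite strands, against 12.4% of all 32851 promoters in the table. TNAAGTG was found in 3 (Cacna1f, Cacnb3 and Scn9a), against 10.1%. GGTGTGA, a T-box motif, was found in 1 (Cacna1b), against 3.33%, and AGATAA, read by GATA factors, in 1 (Scn7a), against 9.99%. Of the motifs read by Hey and Hes factors, CACGTG was found in 0, against 6.02%, and CACGCG in 3 (Cacna1b, Cacna2d2 and Cacnb2), against 7.62%. These are matches of letters only. A motif that is absent from these windows may lie elsewhere.

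Levels of different genes were compared per exon length, as RPKM, the CPM value divided by the exon length in kilobases. In WT hearts Cacna2d1, the main cardiac α2δ subunit, was at 44.5 ± 6.58 RPKM (SD, n = 3) and Cacna1c, the pore of the cardiac L-type channel, at 31.4 ± 5.68 RPKM. Their ranges did not overlap. Below them came Scn4b at 15.5 ± 2.13 RPKM and then Cacnb2, Scn7a, Scn4a and Cacna1h between 12.8 and 9.38 RPKM, and among these 5 genes no neighbours in the order were separated by more than their spread. At P1 the order differed, with Cacna1c at 28.2 ± 2.45 RPKM ahead of Cacna2d1 at 10.8 ± 0.43 in floxed hearts. The order depends on length: with the longest coding transcript in place of the union of exons, Cacnb2 moved from rank 4 to rank 2 of the members described in floxed hearts.

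**Figure D1:**
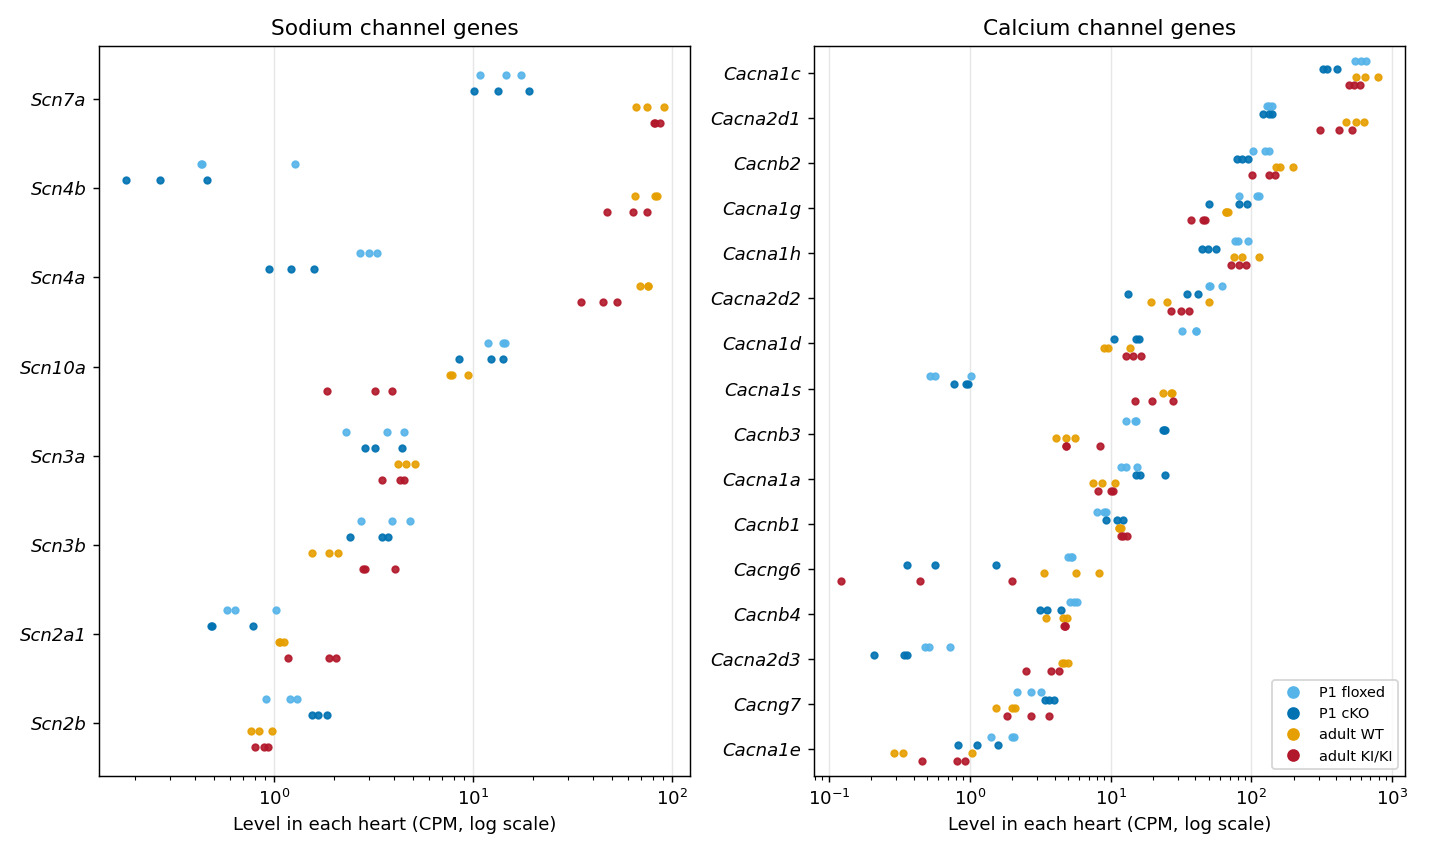
Level of each member that reached a mean of 1 CPM in some group (24 of 38), in every heart, in CPM on a log scale, with 1 point per mouse and 1 colour per group. Scn4b, Scn4a and Cacna1s sit far to the right in adult hearts, while the points of Cacng6 lie to the left in both mutant groups.

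The make-up of the calcium channel subunit families differed between groups. The share of Cacna1c among the 10 calcium channel α1 genes overlapped between the controls, at 58.9% ± 6.43 in WT and 55.0% ± 1.95 in floxed hearts. In the cKO, Cacnb3 held 39.0% ± 1.82 of the 4 calcium channel β genes, against 23.7% ± 3.3 in floxed hearts, while Cacnb2 held 42.6% ± 1.18 against 59.5% ± 3.87. With the longest coding transcript as the length, the shares of Cacnb3 were 25.6% and 13.6% and those of Cacnb2 63.8% and 78.0%, in the same direction. Cacng6 held 75.6% ± 11 of the γ family in WT and 67.9% ± 5.06 in floxed hearts, but 24.5% ± 26.2 in KI/KI and 19.1% ± 12.2 in cKO hearts, where Cacng7 led on average. In KI/KI replicate 6 Cacng6 still held 53.9%. Summed RPKM of the γ family was 1.65 ± 0.23 in KI/KI against 3.75 ± 1.10 in WT hearts. It was 2.05 ± 0.29 in cKO against 3.86 ± 0.20 in floxed hearts. Cacng7 itself was called in neither model.

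**Figure D2:**
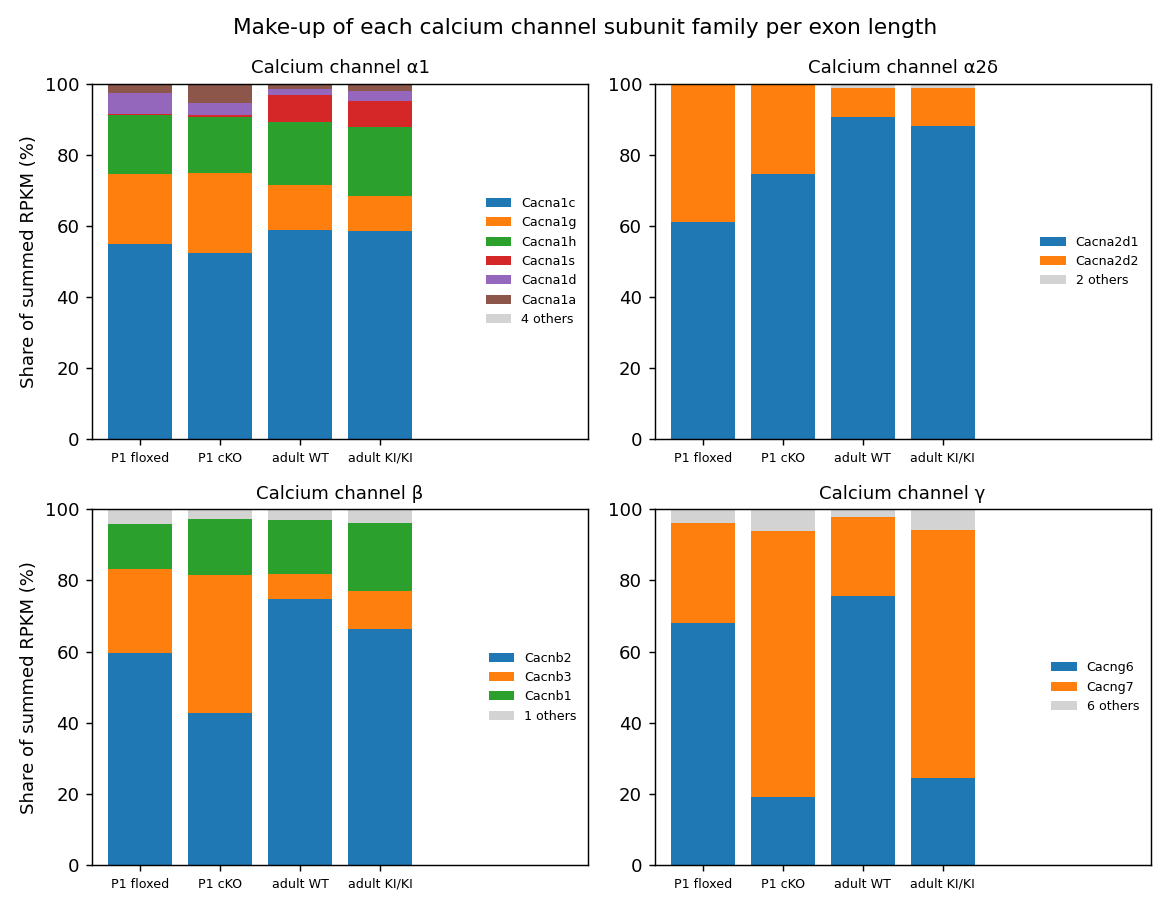
Make-up of the 4 calcium channel subunit families as the mean share of summed RPKM (%), with a stacked bar for each group of 3 hearts and genes under 5% in every group pooled in grey. Cacnb3 fills 39.0% of the β bar in cKO and 23.7% in floxed hearts. Mean shares of Cacng6 are smaller and those of Cacng7 larger in cKO and KI/KI than in their controls.

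Of the 38 members, 16 had at least 1 CPM in every library. Tests covered genes with at least 10 counts in 3 of the 6 libraries compared, and 8 members passed in no comparison: Cacna1f, Cacna2d4, Scn1a and the γ genes Cacng1, Cacng2, Cacng3, Cacng5 and Cacng8. None of these 8 exceeded 8 counts or 0.194 CPM in any library. These genes are best known from retina, brain or, for Cacng1, skeletal muscle. Among the 3 comparisons of 6 libraries, Cacna1i was tested in KI/KI against WT alone, Cacng4 and Scn11a in cKO against floxed alone, and Scn9a in all but KI/KI against WT.

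In the comparison of adult WT with P1 floxed hearts, the controls of both models, 27 members were tested. The sodium channel β subunit Scn4b was higher in adults, and so were Cacna2d1 and the skeletal muscle type genes Scn4a and Cacna1s. Cacna1d, Cacna1g and Cacnb3 were lower. In all 8 members were higher and 8 lower by edgeR at an adjusted p under 0.05, against 31.3% and 33.2% of all 15267 genes tested. The median log2 fold change was -0.34 over the members and -0.04 over all genes. The values of the groups did not overlap for 9 higher and 11 lower members, against 34.3% and 36.4% of all genes. Scn9a, which passed the filter only through the P1 hearts, is among the lower members in both counts. Age, the floxed allele and mouse line differ together here and cannot be told apart, and the cardiomyocyte markers summed to 90900 to 104000 CPM in WT against 49700 to 58000 in floxed hearts, whose part in these results was not tested.

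Among the sodium channel pores, Scn4a, the α subunit of skeletal muscle, was at 75.6, 69.4 and 76.1 CPM against 3.29, 2.72 and 2.98 CPM, a log2 fold change of 4.61 ± 0.10 (adjusted p = 1.85e-07). Scn7a, an α-like gene of glia and other supporting cells whose product is not opened by voltage, was at 75.4, 66.1 and 90.8 CPM against 14.7, 17.4 and 10.8 CPM (2.43 ± 0.19, adjusted p = 2.82e-05). Both were apart in all hearts. Schwann cell markers summed to 61.1 to 88.1 CPM in WT and to 25.0 to 62.8 CPM in floxed hearts, and 5 of the 8 were higher and 1 lower, with a median log2 fold change of 1.80. Their part in the Scn7a result was not tested.

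In the other direction, Scn10a, a pore of sensory neurons, was at 7.62, 7.85 and 9.38 CPM in WT and at 11.9, 14.2 and 14.4 CPM in floxed hearts (-0.71 ± 0.13, adjusted p = 0.00179). The groups were apart, with the adult hearts low. Scn9a, a pore of peripheral neurons, was listed at 0, 0 and 0.109 CPM against 0.384, 0.391 and 0.213 CPM (-2.97 ± 0.88, adjusted p = 0.0177), and it passed the filter only through the P1 hearts. This call was lost in the fit of all 12 libraries (adjusted p = 0.0759) and with the replicate number as a block, and Scn9a was no longer tested without any 1 of the floxed libraries. Without WT replicate 3, the adult heart with reads of Scn9a, the WT group was at 0 and the fitted value of -6.74 is no bound. The neuron markers summed to 17.1 to 18.3 CPM in WT and to 12.7 to 24.3 CPM in floxed hearts, which overlap, and 4 of the 8 tested were lower and 1 higher.

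Of the sodium channel β genes, Scn4b, which shapes the resurgent current of the channel, was at 65.0, 82.4 and 84.2 CPM in WT and at 0.429, 0.435 and 1.28 CPM in floxed hearts, the largest log2 fold change of any member in this comparison at 6.74 ± 0.38 (adjusted p = 1.21e-05). That is 107 times higher in the adult, and no values overlapped. The fold was 175 times without floxed replicate 3, the highest P1 value of Scn4b. Scn3b, another β subunit, was at 1.9, 1.56 and 2.10 CPM against 3.93, 4.80 and 2.73 CPM (-1.05 ± 0.25, adjusted p = 0.00709). It was thus lower in every adult heart. Scn2b had a log2 fold change of -0.41 and was not called.

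Of the L-type pores, Cacna1c was at 794, 642 and 557 CPM in WT and at 601, 544 and 647 CPM in floxed hearts, with overlapping values, and its log2 fold change of 0.15 had a 95% interval of -0.16 to 0.45 (adjusted p = 0.354). Cacna1d, the L-type pore of pacemaker and atrial cells, was at 9.58, 8.92 and 13.8 CPM against 40.4, 40.7 and 32.1 CPM. It fell by 1.81 on the log2 scale (SE 0.19, adjusted p = 0.000102), and all adult hearts were below all P1 hearts. Cacna1s, the L-type pore of skeletal muscle, was at 23.6, 26.8 and 27.4 CPM against 0.564, 0.522 and 1.02 CPM, with a log2 fold change of 5.19 ± 0.23 (adjusted p = 1.87e-06). The 10 markers of fast skeletal muscle summed to 78.3 to 87.5 CPM in WT and to 33.7 to 51.7 CPM in floxed hearts, nearly all of it Myl1, while the other tested ones had WT means of 0.607 to 2.03 CPM. Only Myl1 of the 6 tested was called, with a log2 fold change of 1.02, and the part of skeletal muscle in the Scn4a and Cacna1s results was not tested further.

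Of the T-type pores, Cacna1g was at 68.7, 65.5 and 65.9 CPM in WT and at 113, 81.3 and 110 CPM in floxed hearts (-0.61 ± 0.12, adjusted p = 0.00281). All 3 adult values were below the P1 values. Cacna1h was at 86.3, 75.6 and 113 CPM against 80.1, 94.3 and 76.3 CPM and overlapped (0.13 ± 0.16, adjusted p = 0.494, 95% interval -0.24 to 0.50). Cacna1a and Cacna1e, pores of neuronal P/Q- and R-type channels, were lower, by log2 fold changes of -0.58 ± 0.16 (adjusted p = 0.0148) and -1.70 ± 0.49 (adjusted p = 0.0155). Cacna1e was at most at 2.08 CPM in these hearts, and its value was -2.52 without WT replicate 3.

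The auxiliary subunits moved both ways. Cacna2d1 was at 631, 557 and 468 CPM in WT and at 129, 133 and 139 CPM in floxed hearts (2.04 ± 0.11, adjusted p = 3.47e-06), and Cacna2d3, an α2δ subunit of the brain, was at 4.95, 4.67 and 4.52 CPM against 0.722, 0.478 and 0.512 CPM (3.03 ± 0.23, adjusted p = 1.58e-05). Both were apart in all hearts. Cacna2d2, at 19.3, 25.2 and 49.8 CPM against 50.9, 61.6 and 49.8 CPM, was not called (-0.78 ± 0.34, adjusted p = 0.0863). Without WT replicate 3, the highest adult value of this gene, it was called at -1.27 (adjusted p = 0.000334). Cacnb2, the main cardiac β subunit, was at 160, 197 and 150 CPM against 125, 102 and 133 CPM (0.49 ± 0.13, adjusted p = 0.0116), and Cacnb1, the β subunit of skeletal muscle, had a log2 fold change of 0.40 ± 0.10 (adjusted p = 0.00824). Cacnb3, a β subunit found in brain and smooth muscle, was at 4.12, 4.79 and 5.55 CPM against 15.1, 15.0 and 12.9 CPM (-1.57 ± 0.14, adjusted p = 4.12e-05), in all adult hearts under the P1 values. Scaled to total counts without TMM, the median over all genes moved from -0.04 to -0.45, and the calls of Cacnb2 (0.0828, adjusted p = 0.543) and Cacnb1 (-0.00336, adjusted p = 0.98) were lost. Cacna1c and Cacna1h took values of -0.26 and -0.27, and in all 6 members were higher and 13 lower.

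**Figure D3:**
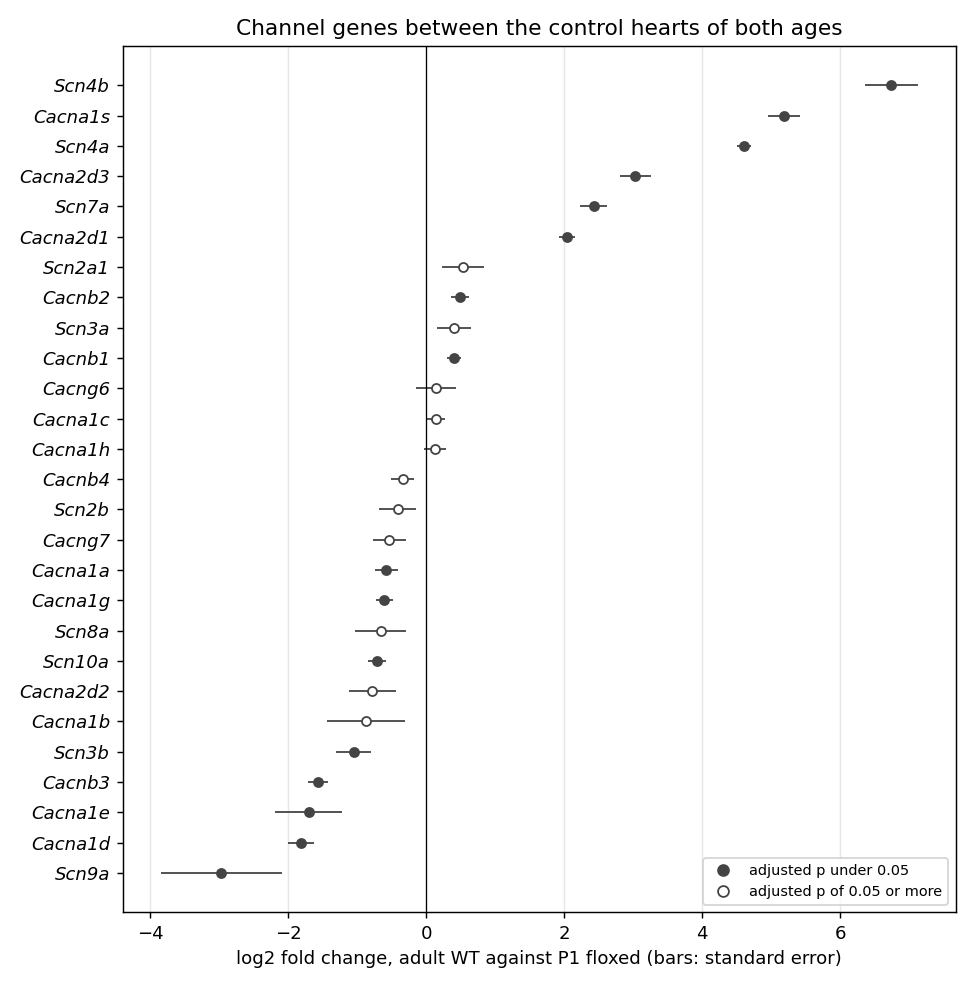
Log2 fold change of the 27 members tested in adult WT against P1 floxed hearts, with its standard error as a bar and filled points for an adjusted p under 0.05. The 6 members on the right at 2.04 or more are led by Scn4b at 6.74, and Scn9a and Cacna1d lie at -2.97 and -1.81. Scn9a passed the filter only through the P1 hearts.

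In the cKO against floxed comparison at P1, 29 members were tested. The L-type pores Cacna1c and Cacna1d, the T-type pore Cacna1h, the β subunit Cacnb2, the γ subunit Cacng6 and the sodium channel pore Scn4a fell, while the β subunit Cacnb3 rose. These are 1 member higher and 6 lower, against 9.15% and 7.23% of all 15392 genes tested. The median log2 fold change was -0.34 over the members and 0.00 over all genes. Groups did not overlap for 4 higher members (Cacnb1, Cacng7 and Scn2b beside Cacnb3) and 9 lower ones (Cacna2d2, Cacna2d3 and Cacnb4 beside those called), against 19.8% and 19.1% of all genes. DESeq2 called Cacnb4, a β subunit of the brain, in addition (-0.55, adjusted p = 0.0433, edgeR adjusted p = 0.0808). The cardiomyocyte markers summed to 41700 to 45900 CPM in cKO against 49700 to 58000 CPM in floxed hearts, with 4 of 8 called lower (median log2 fold change -0.46). Scaled to the summed counts of those 8 markers, a choice made after seeing the data that shifts the median of all genes to 0.26, 4 members were higher (Cacna1a, Cacnb1 and Scn2b in addition) and 5 lower (without Cacnb2).

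Cacna1c was at 321, 405 and 344 CPM in cKO and at 601, 544 and 647 CPM in floxed hearts, a log2 fold change of -0.74 ± 0.11 (adjusted p = 0.01). Every cKO value lay under every floxed value. Cacna1d was at 15.1, 16 and 10.6 CPM against 40.4, 40.7 and 32.1 CPM, which is 2.71 times lower (log2 fold change -1.44 ± 0.19, adjusted p = 0.00792). The cKO values were close to those of adult WT hearts at 8.92 to 13.8 CPM. Cacna1s was at 0.779, 0.938 and 0.972 CPM against 0.564, 0.522 and 1.02 CPM and was not called (0.35 ± 0.34, 95% interval -0.45 to 1.14).

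Cacna1h was at 44.8, 55.6 and 49.1 CPM in cKO and at 80.1, 94.3 and 76.3 CPM in floxed hearts (-0.75 ± 0.11, adjusted p = 0.0109), without overlap. Cacna1g, the other T-type pore above 1 CPM, was at 49.9, 93.4 and 81.2 CPM against 113, 81.3 and 110 CPM (-0.44 ± 0.23, adjusted p = 0.219). Its values overlapped, since the highest cKO heart exceeded the lowest floxed heart. Markers of nodal cardiomyocytes, the pacemaker and conduction cells in which Cacna1d and Cacna1g are abundant, summed to 55.2 to 75.6 CPM in cKO against 87.0 to 100 CPM in floxed hearts, with 0 of 8 called by edgeR, 3 lower at an unadjusted p under 0.05 and a median log2 fold change of -0.51. Their part in the Cacna1d result was not tested.

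Among the other subunits, Cacng6, a γ subunit related to that of skeletal muscle, was at 0.359, 0.563 and 1.53 CPM in cKO and at 5.28, 4.98 and 5.25 CPM in floxed hearts, 6.43 times lower (log2 fold change -2.68 ± 0.48, adjusted p = 0.0162). The highest cKO heart was well below the lowest floxed heart. Without that heart, cKO replicate 6, Cacng6 was 11.2 times lower (-3.48). Cacnb2 was at 79.2, 94.5 and 85.6 CPM against 125, 102 and 133 CPM (-0.47 ± 0.12, adjusted p = 0.0364), and Cacnb3 at 23.6, 24.2 and 24.0 CPM against 15.1, 15.0 and 12.9 CPM (0.74 ± 0.10, adjusted p = 0.00886). These 2 β genes thus moved in opposite directions, each without overlap. Cacna2d1 was at 132, 140 and 121 CPM against 129, 133 and 139 CPM, with a 95% interval of -0.23 to 0.17 around -0.03. Cacna2d2 was at 35.1, 41.9 and 13.3 CPM against 50.9, 61.6 and 49.8 CPM (-0.84 ± 0.38, adjusted p = 0.174). Without cKO replicate 6, its lowest heart, Cacna2d2 was called at -0.49 (adjusted p = 0.0391).

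Of the sodium channel genes described, Scn4a was called. It was at 1.22, 0.938 and 1.58 CPM against 3.29, 2.72 and 2.98 CPM (-1.27 ± 0.24, adjusted p = 0.0194), all cKO hearts being lower. Scn4b was at 0.18, 0.458 and 0.267 CPM against 0.429, 0.435 and 1.28 CPM (-1.23 ± 0.57, adjusted p = 0.179), and Scn7a was at 19.2, 10.1 and 13.3 CPM against 14.7, 17.4 and 10.8 CPM (-0.01 ± 0.28, 95% interval -0.67 to 0.66). Both overlapped.

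With each of the 6 P1 libraries left out in turn, Cacna1d and Cacnb3 were called every time, with adjusted p up to 0.0484 for each. Cacna1c and Cacna1h were lost only without floxed replicate 1 (adjusted p = 0.0608 and 0.0534), which left Cacna1d and Cacnb3 as the members called. Cacng6 and Scn4a were lost without floxed replicate 1, floxed replicate 2 or cKO replicate 5, and Cacnb2 without floxed replicates 1 or 3 or cKO replicates 4 or 5.

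**Figure D4:**
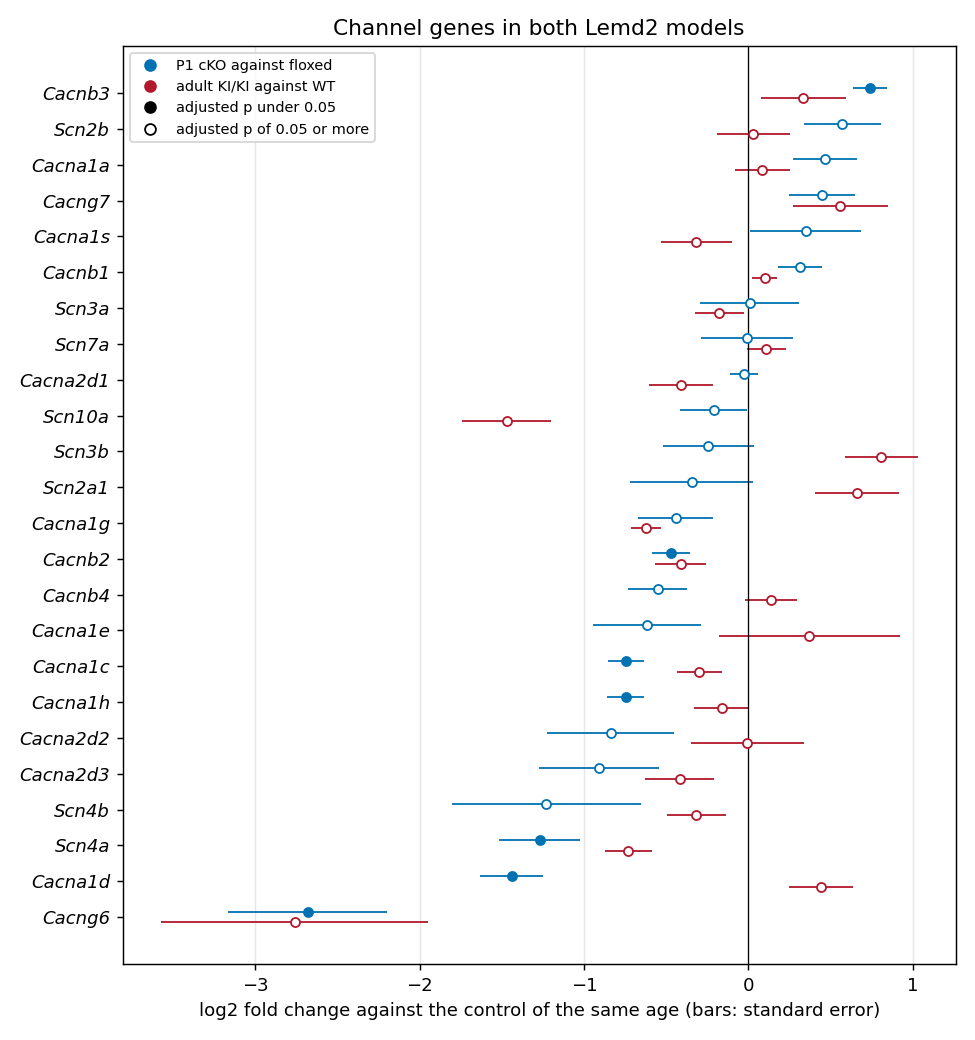
Log2 fold change of 24 members in cKO against floxed (blue) and KI/KI against WT (red) hearts, with the standard error as a bar and filled points for an adjusted p under 0.05. Cacng6 lies at -2.68 and -2.76, while Cacna1d lies at -1.44 in cKO and at 0.44 in KI/KI, and no red point is filled.

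In KI/KI against WT hearts, 27 members were tested and edgeR called 0, against 0% of all 14670 genes. At an unadjusted p under 0.05, 2 were higher (Scn2a1 and Scn3b) and 5 lower, against 8.72% and 7.18% of all genes. DESeq2 called 3 members lower, Cacna1g, Scn10a and Scn4a, against 3.59% of all genes in either direction, and limma-voom called 0. The median log2 fold change was 0.03 over the members and 0.00 over all genes. Values did not overlap for 3 higher members (Cacnb1, Scn2a1 and Scn3b) and 6 lower ones, against 11.4% and 10.4% of all genes. Scn3b, lower in the adult than at P1, was at 2.86, 4.04 and 2.78 CPM in KI/KI and at 1.9, 1.56 and 2.10 CPM in WT hearts (0.81 ± 0.22, adjusted p = 0.237).

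The lowest p among the members belonged to Cacna1g, at 45.4, 46.9 and 37.5 CPM in KI/KI and at 68.7, 65.5 and 65.9 CPM in WT hearts, a log2 fold change of -0.62 ± 0.09 (edgeR adjusted p = 0.186, DESeq2 adjusted p = 7.98e-06). All KI/KI hearts were under all WT hearts. Scn10a was at 3.93, 1.84 and 3.20 CPM against 7.62, 7.85 and 9.38 CPM, 2.78 times lower (-1.47 ± 0.27, edgeR adjusted p = 0.187, DESeq2 adjusted p = 1e-04). Scn4a was at 53.0, 34.8 and 45.3 CPM against 75.6, 69.4 and 76.1 CPM (-0.73 ± 0.14, edgeR adjusted p = 0.191, DESeq2 adjusted p = 0.000968). Neither gene had overlapping values. The neuron markers summed to 8.74 to 13.9 CPM in KI/KI against 17.1 to 18.3 CPM in WT hearts, with 0 of 6 called by edgeR, 1 lower at an unadjusted p under 0.05 and a median log2 fold change of -0.23. That 1 was Dbh, at 2.75 ± 1.78 CPM in KI/KI against 9.08 ± 2.08 CPM in WT hearts. Stmn2 was at 6.17 ± 0.53 against 6.49 ± 1.11 CPM, and the other tested ones had WT means of 0.281 to 0.482 CPM. Nodal markers summed to 93.1 to 99.2 CPM against 97.0 to 134 CPM, with 4 of 7 lower at an unadjusted p under 0.05 (median -0.52). Of the 6 fast skeletal muscle markers tested, 5 had a log2 fold change under 0 and 0 were called by edgeR (median -0.53, 1 lower at an unadjusted p under 0.05), while the summed level overlapped at 70.3 to 136 against 78.3 to 87.5 CPM. Tnni2, the fast skeletal troponin I, was at 0.67 ± 0.27 against 2.03 ± 0.61 CPM without overlap (-1.60, edgeR adjusted p = 0.206, DESeq2 adjusted p = 0.0104). The part of these markers in the Scn10a, Cacna1g and Scn4a values was not tested.

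Cacng6 was at 0.447, 0.121 and 1.99 CPM in KI/KI and at 5.69, 8.24 and 3.35 CPM in WT hearts, 6.76 times lower by the fit (log2 fold change -2.76 ± 0.81, 95% interval -4.69 to -0.82, adjusted p = 0.241). The groups did not overlap, although KI/KI hearts differed widely among themselves, with KI/KI replicate 6 highest. Without it, Cacng6 was 20.7 times lower (-4.37, adjusted p = 0.522). Cacng7, its neighbour on chromosome 7 (GRCm38), was at 2.71, 3.68 and 1.83 CPM against 2.09, 1.53 and 1.99 CPM, with a log2 fold change of 0.56 that was not called. Cacng7, Cacng8 and Cacng6 lie in that order on the plus strand, separated by 22.5 kb and 8.55 kb. Cacng8 between them stayed at or under 7 counts in every library, and in cKO hearts Cacng7 was at 3.63, 3.96 and 3.43 CPM against 2.73, 3.19 and 2.15 CPM (0.45, adjusted p = 0.169).

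The main calcium channel subunits overlapped between KI/KI and WT, apart from Cacna1g, given above, and Cacnb2. Cacna1c was at 590, 489 and 537 CPM against 794, 642 and 557 CPM (-0.30 ± 0.14, 95% interval -0.62 to 0.03). It was lower on average, with 1 WT heart inside the KI/KI range. Cacnb2 was at 146, 101 and 133 CPM against 160, 197 and 150 CPM, just without overlap (-0.41 ± 0.16, adjusted p = 0.288). Cacna2d1 was at 517, 306 and 419 CPM against 631, 557 and 468 CPM (-0.41 ± 0.20, 95% interval -0.88 to 0.06). Scn4b was at 74.9, 47.2 and 63.7 CPM against 65.0, 82.4 and 84.2 CPM (-0.32 ± 0.18). Of the members tested, KI/KI replicate 5 was the lowest adult heart for Cacna1c, Cacna1s, Cacna2d1, Cacna2d3, Cacnb2, Cacng6, Scn3a, Scn4a, Scn4b and Scn10a. That heart was the highest for Cacna1d, Cacnb1, Cacnb3, Cacng7, Scn2a1 and Scn3b.

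For the rest of the named members the KI/KI values also overlapped those of WT. Cacna1d was at 12.8, 16.5 and 14.5 CPM against 9.58, 8.92 and 13.8 CPM (0.44 ± 0.19, adjusted p = 0.326), Cacna1h at 72.1, 91.8 and 81.1 CPM against 86.3, 75.6 and 113 CPM (-0.16 ± 0.17), and Cacna1s at 27.9, 14.9 and 19.7 CPM against 23.6, 26.8 and 27.4 CPM (-0.32 ± 0.21). Scn7a was at 86.7, 81.3 and 82.3 CPM against 75.4, 66.1 and 90.8 CPM (0.11 ± 0.12), and Cacna2d2 at 36.1, 31.4 and 26.7 CPM against 19.3, 25.2 and 49.8 CPM (-0.01 ± 0.34). The direction of Cacna2d2 turned with a single library: without WT replicate 3, its highest heart, the log2 fold change was 0.51 (adjusted p = 0.24). Scaled to the 8 cardiomyocyte markers, which sum to 71300 to 92600 CPM in KI/KI against 90900 to 104000 CPM in WT and shift the median of all genes to 0.26, Cacna1h and Cacna2d2 were at 0.10 and 0.22, and no member was called.

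In both models 26 members were tested. Values were lower without overlap in both for 4 of them, Cacng6, Cacna2d3, Cacnb2 and Scn4a, or 15.4% of the 26, against 3.73% of the 14313 genes tested in both. They are 66.7% of the 6 members lower in KI/KI and 44.4% of the 9 lower in cKO. Over all genes, 534 were lower in both, beside 1519 of 14670 lower in KI/KI and 2942 of 15392 lower in cKO. Higher in both without overlap was 1 member, Cacnb1, or 3.85% of the 26, near the 4.59% of all genes. None was higher in one and lower in the other without overlap. Cacna2d3, more abundant in the adult, was at 4.32, 2.49 and 3.77 CPM in KI/KI against 4.95, 4.67 and 4.52 CPM in WT, and at 0.359, 0.208 and 0.340 CPM in cKO against 0.722, 0.478 and 0.512 CPM in floxed hearts. It was called in neither model (edgeR adjusted p = 0.367 in KI/KI and 0.13 in cKO).

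The difference between the 2 genotype effects was tested in 1 fit of all 12 libraries, for 30 members. Cacna1d was the only member called by edgeR, with an effect in KI/KI that exceeded that in cKO by 1.87 ± 0.28 on the log2 scale (adjusted p = 0.0123), against 2.47% of all 15842 genes. It stayed called in every alternative run, at 1.71 to 2.10. Scn10a, lower in KI/KI and overlapping in cKO at 12.3, 14.2 and 8.46 CPM against 11.9, 14.2 and 14.4 CPM, gave a difference of -1.26 ± 0.36 (edgeR adjusted p = 0.0837, DESeq2 adjusted p = 0.0126). Cacng6 had similar folds in both models, and its difference of -0.08 ± 1.03 was poorly resolved. Age and kind of allele differ together between the models and cannot be told apart.

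**Figure D5:**
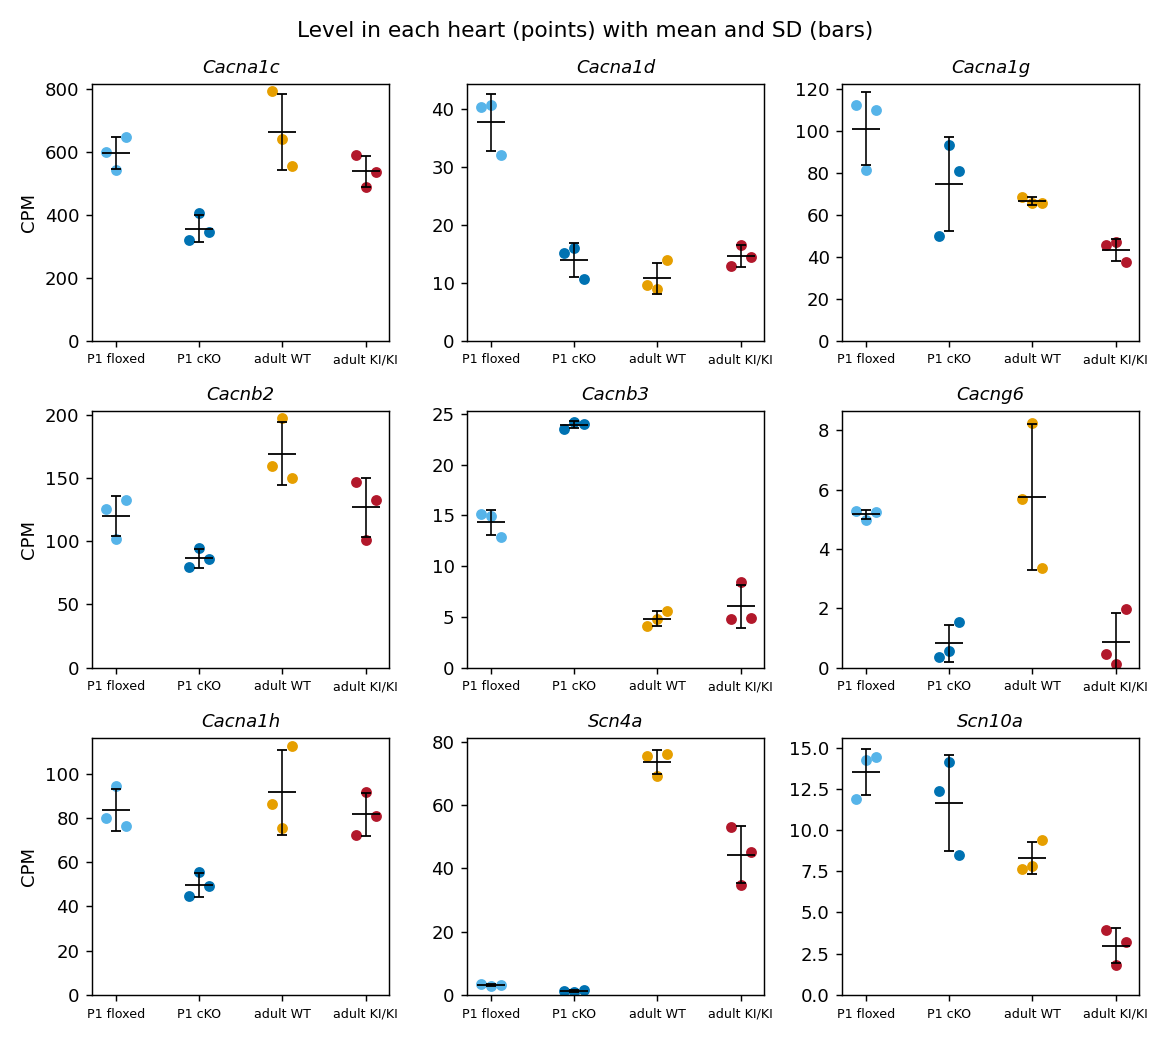
CPM of 9 members in each of the 12 hearts, with points for hearts and bars for the mean and SD of each group of 3. Cacna1d sits between 32.1 and 40.7 CPM in floxed hearts and between 8.92 and 16.5 CPM in the other 3 groups, and Cacng6 stays below 2 CPM in both mutant groups.

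Genes that anchor, modulate or regulate these channels were followed in 3 lists, to be read against the 9.15% of all genes called higher and 7.23% called lower in cKO, and the 31.3% and 33.2% with age. Of 15 genes for sodium channel anchors and FGF homologous factors, 2 were higher and 3 lower in cKO hearts (median -0.04), 0 were called in KI/KI (edgeR, 2 lower at an unadjusted p under 0.05, median -0.01), and 8 were higher and 4 lower in adult WT against P1 floxed hearts (median 0.34). In the age comparison Fgf14, an FGF homologous factor, Gpd1l and Rangrf, which affect the surface level of sodium channels, rose by 1.15, 1.20 and 1.31 on the log2 scale. Of 18 RGK proteins and other calcium channel modulators, 4 were higher and 3 lower in cKO (median 0.04), 0 of 17 were called in KI/KI (edgeR, 3 lower at an unadjusted p under 0.05, median 0.02), and 6 were higher and 5 lower with age (median -0.05), near the shares of all genes. Ryr2, the calcium release channel that L-type current opens, was at 904 ± 93.7 CPM in cKO and 1600 ± 224 CPM in floxed hearts (-0.82, adjusted p = 0.0123) and at 4100 ± 823 CPM in WT. In KI/KI hearts Ryr2 was at 3080 ± 324 CPM and overlapped WT (-0.405, edgeR adjusted p = 0.301). Ryr2 also counts among the cardiomyocyte markers. With age, Ryr2 rose by 1.35, and Ahnak, Akap6 and Jph2, which tie L-type channels to the cell's scaffold and to the release sites, rose by 1.02, 1.56 and 1.37 on the log2 scale. Stac2, an adaptor of L-type channels, had log2 fold changes of 1.06 in cKO (adjusted p = 0.0342) and of -1.56 with age (adjusted p = 0.00336). Its level was low, at 0.292 ± 0.069 CPM in WT and 0.424 ± 0.151 CPM in KI/KI hearts.

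Of 12 transcription factors of cardiac and nodal genes, 3 were lower in cKO and 0 higher (median -0.25), 0 of 11 were called in KI/KI (edgeR, 1 higher and 1 lower at an unadjusted p under 0.05, median 0.01), and 5 were lower and 0 higher with age (median -0.26), against 33.2% lower and 31.3% higher of all genes. Hey2, a transcriptional repressor of the compact ventricular wall, was at 25.3 ± 2.92 CPM in cKO against 91.2 ± 11.6 CPM in floxed hearts (-1.86 ± 0.12, adjusted p = 0.00495) and at 7.46 ± 0.56 CPM in WT. Tbx18 and Isl1 also fell with age, by 1.98 and 3.22 on the log2 scale. Nkx2-5 and Mef2c, both activators of cardiac genes, were called lower in cKO at -0.36 and -0.40.

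Markers of other cells moved in cKO as well: 4 of 7 macrophage, 3 of 8 fibroblast, 2 of 8 smooth muscle and 1 of 8 endothelial markers were called higher, and 2 of 8 Schwann cell markers and 1 of 9 neuron markers lower. Of 7 atrial markers 1 was higher, Nppa at 1.95, and 1 lower. Of 8 fast skeletal muscle markers tested, 6 had a log2 fold change above 0 and 1 was called (median 0.80), Myh1, a fast myosin, at 0.852 ± 0.32 against 0.209 ± 0.10 CPM. Tnni2 was at 0.926 ± 0.38 against 2.19 ± 0.45 CPM without overlap (-1.23, edgeR adjusted p = 0.0572, DESeq2 adjusted p = 0.0158) and Actn3 at -0.84 (adjusted p = 0.241). In KI/KI edgeR called 0 of the 73 markers tested, as of all genes, and DESeq2 called 3 higher and 6 lower, the latter including Hcn4 and Cpne5 of nodal cells and Dbh of neurons (adjusted p = 0.0176, 0.00402 and 0.00333). The fibroblast, macrophage and atrial sums lay above those of WT without overlap (2440 to 4760 against 2000 to 2400, 425 to 496 against 268 to 411, and 4540 to 10400 against 4040 to 4260 CPM). Of the 7 atrial markers, 5 had a log2 fold change above 0 and 2 under 0. Nppa was at 4950 ± 2480 against 2110 ± 141 CPM, while Stard10 was lower without overlap (-0.35). Sln and Myl7 were at 0.07 and -0.09 on the log2 scale. The part of all these cell types in the channel results was not tested.

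Reads that fall on a shared exon could belong to either gene where strand was not used in counting, and the strand setting is not given in the sources used here. The exons of Cacna1d share 589 bases with those of Chdh on the opposite strand, and Chdh had mean levels of 0.552 to 0.792 CPM in all 4 groups and was not called in any comparison.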

How the data were processed

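Whole-heart poly(A) RNA of 12 mice (4 groups of 3) was sequenced. The authors trimmed reads with Trim Galore, checked libraries with Bowtie2 2.3.4.3, aligned to mm10 with STAR 2.7.2b, sorted with SAMtools 1.9 and used HTSeq to obtain the deposited raw counts, which are whole numbers per gene without normalization. The strand setting is not given in the sources used here. Reads of near-identical genes may be lost or split by such counting.

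Tests were run on these counts with edgeR 4.0.16 under R 4.3.3 (TMM, robust quasi-likelihood test, Benjamini-Hochberg over all tested genes). Each comparison used its own 6 libraries and genes with at least 10 counts in 3 of them. The difference between the models was a contrast in a fit of all 12. A member was called at an adjusted p under 0.05. Standard errors were obtained by dividing the size of each log2 fold change by the root of its F value. Replicates are separate mice, so p-values and the 95% intervals of log2 fold changes, which come from the same fits, measure the spread between mice. The floor of 3 counts covers counting error only. Totals ranged from 37063669 to 44789753. Coordinates and exon lengths are from GENCODE M21 (GRCm38), promoter windows from RefSeq (GRCm38.p6).

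Members with full values were those called, 10 main cardiac or cell-type genes, and those without overlap at an absolute log2 fold change of 1 or more. Other members named were chosen after their values were seen. Of partner and marker genes, at most 4 called ones per list with such a change were to be named; further ones were named after their values were seen. Some members by the rule are not reported here. They stayed in the fits and in the counts over all genes. Members and lists were chosen with earlier results of these data known. Alternatives were DESeq2 1.42.0, limma-voom (limma 3.58.1), other scalings and filters, a fold threshold and leaving out each library. Total counts without TMM, scaling to cardiomyocyte markers and the longest coding transcript as length were added after seeing the data. Tool names follow the submitters' processing notes. The scripts were tested on simulated data.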

Additional observations from a re-analysis of the deposited data

Results flagged for a closer look

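The effect of genotype differed between the models by the interaction test in edgeR for Cacna1d (1.87 on the log2 scale, KI/KI against WT minus cKO against floxed, adjusted p = 0.0123) and for 2 of the partner genes picked out here, Hey2 (1.53, adjusted p = 0.0146) and Fgf11 (1.04, adjusted p = 0.0449). In cKO against floxed hearts these genes had log2 fold changes of -1.44, -1.86 and -0.85, and in KI/KI against WT hearts they had 0.44, -0.31 and 0.19. Mef2c (0.54, adjusted p = 0.035) and Cxadr (-0.39, adjusted p = 0.0342) of the partner lists were also called. Age and kind of allele cannot be told apart in this test.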

How the results depend on the processing

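The direction and side of the threshold held in 800 recomputed log2 fold changes of named members, while 25 changed sign, 16 lost and 5 gained a call. In KI/KI hearts 3 members were lower by DESeq2 and 0 by each other alternative. In cKO hearts a fold threshold of 2 left 0 higher and 3 lower members, and scaling to cardiomyocyte markers gave 4 higher. With a library left out, 1 cKO member was higher and 1 to 7 were lower. With age, 6 members were higher and 5 lower above a fold of 2, and 6 higher and 13 lower by total counts without TMM, with Cacnb1 and Cacnb2 lost. Scn9a, which passed the filter only through the P1 hearts, is among the lower members of both counts. The difference between the models was called for 2 members by DESeq2, and for 1 to 2 with a library left out. The stricter rule and the fewer libraries act by construction, and the cause of the other shifts was not tested.

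With the replicate block, 8 members were higher and 7 lower in adult WT against P1 floxed hearts, with Scn9a lost (adjusted p = 0.0585). Equal numbers label different animals. Same-numbered hearts deviated with correlations of -0.25, -0.31 and -0.56, and pairs with different numbers with -0.31 to 0.46. Deviations were taken from the mean of each group of 3, which ties these values together. They therefore cannot show whether a batch was shared. WT and KI/KI hearts, and floxed and cKO hearts, share no numbers.

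Changes of sign were of uncalled values, except Cacnb1. In KI/KI against WT, Cacna2d2 was at 0.0917 by limma-voom, 0.051 by total counts and 0.22 by marker scaling, Cacna1h at 0.10 by marker scaling, and with a library left out Cacna2d2 ran from -0.264 to 0.51 and Cacna1h from -0.287 to 0.0276. In cKO against floxed, marker scaling gave 0.24 for Cacna2d1 and 0.26 for Scn7a, and with a library left out these ran from -0.0728 to 0.0321 and -0.319 to 0.195. In adult against P1, total counts gave -0.26 for Cacna1c, -0.27 for Cacna1h and -0.00336 for Cacnb1, and with a library left out Cacna1h ran from -0.036 to 0.258. For the difference between the models, with a library left out Cacnb2 ran from -0.0624 to 0.187, Scn7a from -0.0844 to 0.404 and Cacna1g from -0.408 to 0.00351.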
